A study of Mus musculus with 6 samples.

Results

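The genes described here are 9 regulators of G protein signalling (RGS genes) in mouse bone marrow-derived macrophages (BMDMs): Rgs1, Rgs2, Rgs3, Rgs10, Rgs12, Rgs14, Rgs16, Rgs18 and Rgs19. They were chosen by name among the 55335 genes listed in the count table, and their identifiers were found in the GENCODE M21 annotation of GRCm38. All 9 were tested among 15687 genes that passed a filter on low counts. The remaining 12 genes named Rgs in that annotation are given beside them.

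Total RNA was sequenced from BMDMs of C57BL/6 mice, all labelled wild type (WT) in the library names, given either LPS (lipopolysaccharide, a bacterial cell wall component sensed by Toll-like receptor 4) or PBS, the buffer control, with both groups collected at 1 h. The bone marrow cells of both groups had been grown for 6 d with 10% fetal bovine serum and 20% medium conditioned by L929 cells, a source of macrophage colony-stimulating factor, so the macrophages were matured in culture and are not tissue cells. The study's methods describe the mice as males in young adulthood, and neither the labels nor the RNA-seq methods state the LPS dose of these libraries. Each group held 3 libraries, numbered by batch in the sample labels, with totals from 37787611 to 41516330 counts. The labels do not state whether the 3 came from separate animals, so p-values measure the spread between these samples, which may be technical.

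Heterotrimeric G proteins relay signals from receptors on the cell surface, such as those for chemokines, complement fragments, lipids and nucleotides. The activated alpha subunit carries GTP, and an RGS protein binds it through its RGS domain and speeds the hydrolysis of that GTP, which ends the signal. In leukocytes these proteins are known for limiting responses to chemoattractants. The R4 group (Rgs1, Rgs2, Rgs3, Rgs16 and Rgs18 here) consists mostly of small proteins with little beside the RGS domain, Rgs19 (also called GAIP) belongs to the RZ group, and Rgs10, Rgs12 and Rgs14 form the R12 group.

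One hour of LPS raised Rgs1 7.27-fold, while no other gene of the 9 changed by as much as 2-fold when libraries were scaled with TMM, a method that lines up the bulk of genes between libraries. Rgs14 and Rgs19 fell, to 0.551 and 0.642 times their PBS level. Rgs10 and Rgs2, the most abundant of the 9 per transcript length with PBS, stayed within 1.07-fold of their PBS level on this scale, but both were lower with LPS when libraries were scaled by size alone. In the make-up of the 9 transcripts per length, Rgs1 went from 6.73% ± 0.150 to 35.6% ± 1.21 (SD, n = 3 libraries per group).

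A gene was called differentially expressed with an adjusted p below 0.05 together with a log2 fold change beyond 1 in either direction (quasi-likelihood test of edgeR, Benjamini-Hochberg over all tested genes). By both criteria 1 of the 9 was higher with LPS, against 10.5% of all tested genes, and 0 were lower, against 10.4% (edgeR, with 4 lower at an unadjusted p under 0.05, and 0 by both criteria in DESeq2 and limma voom). By the adjusted p alone 4 of the 9 rose, against 32.9% of all genes, and 4 fell, against 34.9%. In bulk RNA, fewer cells of a type and less RNA per cell cannot be told apart. These counts lie near the background, and no test of the set was made. Their median log2 fold change was 0.00, the value of Rgs10, and that of all tested genes was -0.01. In the text below, rose and fell are used for an adjusted p under 0.05 in this test.

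The scaling bears on every small change given here. The TMM factors averaged 1.151 with PBS and 0.8691 with LPS, and scaling by library size alone moved the median log2 fold change of all tested genes by -0.40. The rise of Rgs1 and the falls of Rgs12, Rgs14, Rgs18 and Rgs19 kept their direction under TMM, upper quartile and library size scaling, whereas Rgs2 and Rgs3 changed sign with library size alone (log2 fold changes of -0.31 and -0.18). Levels below are CPM (counts scaled to a common library total) after TMM scaling unless stated, as mean ± SD over 3 libraries.

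Sequence near the transcription start was examined in the RefSeq promoter windows on GRCm38.p6, which run from 250 bases before to 50 bases after a start. Of the 9 genes, 6 had at least one window, 10 windows in all, and none was used for Rgs1, Rgs14 and Rgs18. The letters GGNNTTTCC (kappaB-like), TGANTCA (AP-1) and TGACGTCA (CRE) were searched on both strands. Among 32851 windows of all genes, 5.82% held the first, 7.81% the second and 1.79% the third. Of the 10 windows, 1 held the kappaB-like letters, 1 the AP-1 letters and 0 the CRE letters. Both windows with a match are shown, 5′ to 3′ on the strand of the gene, with the match in capitals. That of Rgs19 lies at chr2:181693928-181694227 on the minus strand, with the match beginning 187 bases before the start and read on the opposite strand. That of Rgs12 lies at chr5:34998828-34999127 on the plus strand, around a start inside the annotated gene, with the match beginning 22 bases before it.
Rgs19: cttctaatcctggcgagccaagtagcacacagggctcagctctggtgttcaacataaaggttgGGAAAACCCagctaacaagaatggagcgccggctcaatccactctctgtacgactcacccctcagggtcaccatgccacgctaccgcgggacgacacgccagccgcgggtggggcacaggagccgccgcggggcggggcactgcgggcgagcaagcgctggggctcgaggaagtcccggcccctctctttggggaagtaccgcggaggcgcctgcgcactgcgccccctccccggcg
Rgs12: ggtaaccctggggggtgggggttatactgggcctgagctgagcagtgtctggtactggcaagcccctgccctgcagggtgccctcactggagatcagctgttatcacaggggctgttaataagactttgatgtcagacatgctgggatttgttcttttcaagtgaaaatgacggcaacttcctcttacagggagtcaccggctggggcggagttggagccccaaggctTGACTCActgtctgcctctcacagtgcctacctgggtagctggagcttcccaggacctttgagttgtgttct
Both genes fell with LPS, as described below. The matches are letters in a window, and no factor binding was measured in these libraries.

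Of the R4 group, Rgs1 is a GTPase activator for Gi and Gq alpha subunits and is known as a brake on chemokine responses in lymphocytes and macrophages. The gene (ENSMUSG00000026358.13) lies at chr1:144242296-144249242 on the minus strand. Its counts were 4435, 3842 and 4126 with PBS and 21843, 20046 and 23161 with LPS. Every LPS library was above every PBS library. The level went from 89.2 ± 4.06 to 649 ± 33.2 CPM, a log2 fold change of 2.86 (SE 0.04, adjusted p = 8.673e-20 in edgeR). Within the batch numbers, the log2 ratio of LPS to PBS was 2.80, 2.85 and 2.93. Rgs1 stood at the 96.6th percentile of the log2 fold changes of all tested genes. Tnf, the cytokine gene used here as a check of the LPS label, had a log2 fold change of 6.83 (20.2 ± 1.19 to 2300 ± 49.8 CPM). The annotated exons of Rgs1, merged over its 9 transcripts, form 1 block of 6947 bp that equals the whole gene, since transcript models that retain introns are among them, so reads from unspliced and spliced RNA could both be counted for this gene.

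**Figure D1:**
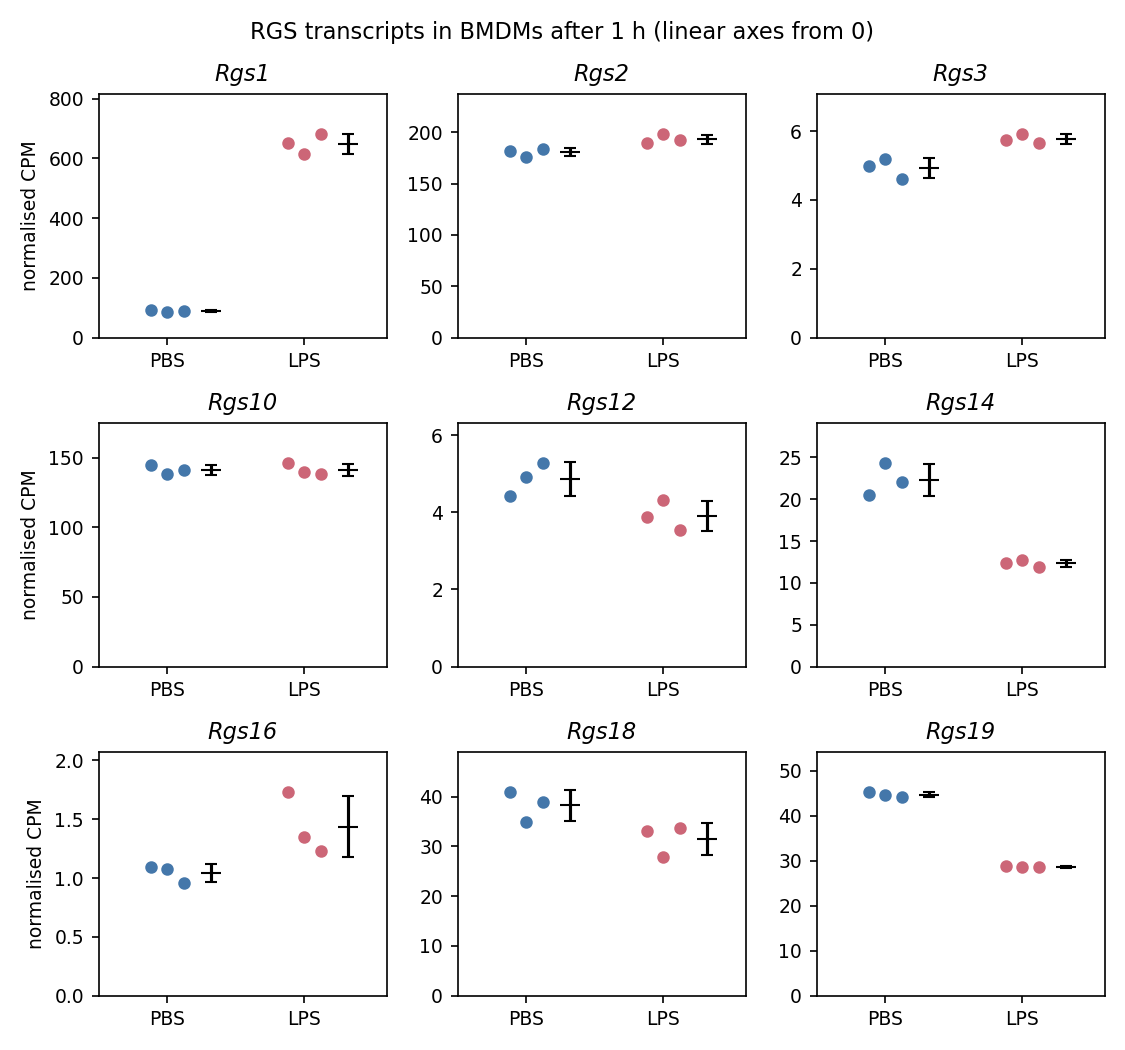
Levels of the 9 RGS transcripts in CPM after TMM scaling (vertical axes from 0, a scale for each gene), with a point for each of the 3 PBS and 3 LPS libraries and a bar beside them for the mean ± SD. The LPS points of Rgs1 lie between 614 and 681 CPM, far above its PBS points of 85.0 to 93.1, those of Rgs14 and Rgs19 lie below PBS, and those of Rgs10 overlap, whereas the rises of Rgs2 and Rgs3 turn to falls when libraries are scaled by size alone.

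Rgs2 acts preferentially on Gq alpha subunits. It lies at chr1:143999338-144004161, also on the minus strand. Its counts were 8657, 7945 and 8502 with PBS and 6359, 6451 and 6522 with LPS. After TMM scaling the libraries read 182, 176 and 184 CPM with PBS and 189, 198 and 192 with LPS, so the groups did not overlap, but they lay close together. The log2 fold change was 0.09 (SE 0.03, adjusted p = 0.0179 in edgeR), but upper quartile scaling gave -0.05 and library size alone -0.31. The adjusted p passed 0.05 when PBS 2 (0.0790) or LPS 2 (0.0617) was left out.

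Rgs18 is known for its expression in platelets and other blood cells, where it acts on Gi and Gq. It lies at chr1:144752683-144775435, on the minus strand. Its counts were 1949, 1578 and 1799 with PBS and 1106, 906 and 1150 with LPS. The level fell from 38.3 ± 3.06 to 31.5 ± 3.27 CPM, a log2 fold change of -0.28 (SE 0.07, adjusted p = 0.00133 in edgeR), and every LPS library was below every PBS library. The log2 fold change was -0.42 under upper quartile scaling and -0.69 under library size. The batch ratios on the log2 scale were -0.31, -0.33 and -0.21. The summed level of 6 megakaryocyte and platelet markers was 5.96 to 6.62 CPM with PBS and 5.99 to 7.36 with LPS. Single markers differed in direction: Itga2b had means of 2.82 and 3.50 CPM, and Gp9 of 0.389 and 0.221 CPM. The part of such cells in the Rgs18 values was not tested.

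Rgs3 and Rgs16, the other R4 genes, were sparse. Rgs3, a regulator of Gi and Gq with several isoforms (chr4:62559847-62704001, plus strand), had 213 to 237 counts in the PBS libraries and 192 to 193 in the LPS libraries. Its level went from 4.93 ± 0.295 to 5.77 ± 0.137 CPM, a log2 fold change of 0.23 (SE 0.09, adjusted p = 0.0398 in edgeR) that became -0.18 with library size alone. Leaving out any library but PBS 2 took its adjusted p past 0.05, up to 0.142 without PBS 3. Rgs16, which acts on Gi and Gq and is inducible in several cell types (chr1:153740349-153745468, plus strand), had 52, 49 and 44 counts with PBS and 58, 44 and 42 with LPS. The normalised level was 1.04 ± 0.0779 and 1.44 ± 0.259 CPM, a log2 fold change of 0.46 with a 95% interval from 0.06 to 0.86 (adjusted p = 0.0395 in edgeR). It was 0.32 (adjusted p = 0.144) with upper quartile scaling and 0.06 (adjusted p = 0.789) with library size alone. The adjusted p was 0.108 in DESeq2, and without LPS 1, the highest library at 1.73 CPM, it was 0.218 and the log2 fold change 0.30. Without PBS 1, PBS 2 or PBS 3 the adjusted p of Rgs16 was 0.0544, 0.0563 and 0.119. Its exons share 236 bp with the antisense gene Gm28513, and the strand setting of the counting is not given in the sources used here.

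Rgs10, of the R12 group, is a small protein that acts on Gi and is abundant in microglia and macrophages, where it is known as a restraint on inflammatory signalling. It lies at chr7:128373621-128418758 on the minus strand. Its counts were 6881, 6241 and 6511 with PBS and 4896, 4570 and 4698 with LPS. The TMM-scaled levels overlapped between groups, at 145, 138 and 141 CPM with PBS and 146, 140 and 138 with LPS. The log2 fold change was 0.00 with a 95% interval from -0.07 to 0.07 (adjusted p = 0.990 in edgeR). That interval leaves room for changes of a few percent, and with library size alone the log2 fold change was -0.40, close to the shift that this scaling gave all tested genes.

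Rgs14 carries, beside the RGS domain, Ras-binding domains and a GoLoco motif that holds inactive Gi alpha subunits. It had the largest fall of the 9 under TMM, upper quartile and library size scaling. The gene is at chr13:55369732-55384687 on the plus strand. The counts were 978, 1098 and 1022 with PBS and 415, 414 and 404 with LPS. Its level fell from 22.3 ± 1.89 to 12.3 ± 0.410 CPM, a log2 fold change of -0.86 (SE 0.07, adjusted p = 3.366e-09 in edgeR), with all LPS libraries below all PBS libraries. The ratios within batch numbers were -0.73, -0.94 and -0.90. It missed the fold criterion under TMM and passed it with library size alone (-1.26) and, barely, under upper quartile scaling (-1.002). It stood at the 12.6th percentile of the fold changes of all tested genes.

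Rgs12 has the same Ras-binding and GoLoco parts and adds PDZ and PTB domains. It lies at chr5:34949445-35039644 on the plus strand and shares 467 exonic bp with the antisense gene Gm43791. It was low, with 210, 222 and 243 counts with PBS and 130, 141 and 120 with LPS. The level fell from 4.86 ± 0.430 to 3.91 ± 0.398 CPM, a log2 fold change of -0.32 (SE 0.11, adjusted p = 0.0181 in edgeR). The groups did not overlap, but LPS 2 at 4.32 CPM and PBS 1 at 4.41 were nearly equal. The adjusted p was 0.0689 in DESeq2, 0.0821 without PBS 3 and 0.0862 without LPS 3, and the batch 3 ratio (-0.58) was larger than those of batches 1 and 2 (both -0.19).

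Rgs19 acts on Gi-type alpha subunits and is anchored to membranes by palmitoylation. It lies at chr2:181688419-181693977 on the minus strand. It read 45.2, 44.5 and 44.1 CPM with PBS and 28.9, 28.5 and 28.5 with LPS, from 2009 to 2153 and at most 970 counts. The level fell from 44.6 ± 0.557 to 28.6 ± 0.245 CPM, a log2 fold change of -0.64 (SE 0.04, adjusted p = 2.132e-10 in edgeR). The libraries of each group were nearly equal and the groups were far apart, and the 3 batch ratios were -0.65, -0.64 and -0.63. With library size alone the log2 fold change was -1.05, past the fold criterion.

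**Figure D2:**
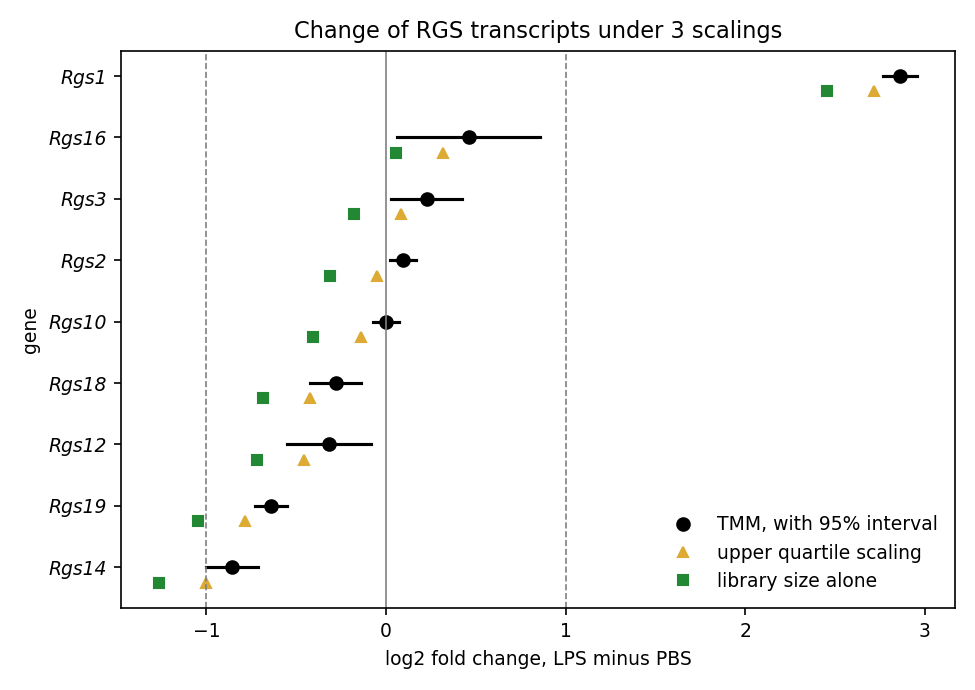
Log2 fold change of each RGS gene, LPS minus PBS (horizontal axis), with black points and 95% intervals for TMM scaling, triangles for upper quartile scaling and squares for library size alone, and dashed lines at the fold criterion of 1 in each direction. Rgs1 lies between 2.46 and 2.86 under these scalings, Rgs14 between -0.86 and -1.26, while Rgs2 and Rgs10 fall on both sides of 0 and Rgs3 turns negative with library size alone.

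To compare genes with each other, levels were set per length as TPM (counts divided by merged exon length and scaled to a common total). TPM divides by the total of each library and does not use TMM, so changes between groups on this scale lie near those of library size scaling. With PBS the order was Rgs10 (261 ± 5.99 TPM), Rgs2 (158 ± 3.37), Rgs19 (63.3 ± 0.967), Rgs18 (59.6 ± 4.74), Rgs1 (40.6 ± 1.85), Rgs14 (16.7 ± 1.42), Rgs12 (1.81 ± 0.155), Rgs3 (1.44 ± 0.0912) and Rgs16 (1.41 ± 0.11). Rgs19 and Rgs18 overlapped over the 3 libraries, as did Rgs3 and Rgs16, and the other neighbours did not.

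With LPS, Rgs1 (215 ± 16.5 TPM) stood beside Rgs10 (190 ± 9.12) at the head of the order, and the libraries of these genes overlapped. Rgs2 (123 ± 1.05), Rgs18 (35.8 ± 4.66), Rgs19 (29.6 ± 1.04) and Rgs14 (6.69 ± 0.155) followed without overlap. Rgs16 (1.42 ± 0.277) and Rgs3 (1.23 ± 0.0176) overlapped, and Rgs12 was lowest on this length at 1.06 ± 0.0823. Several places depended on the length used. With LPS, with the longest annotated transcript of each gene the means were 213 for Rgs1 and 307 for Rgs10, and with the longest protein-coding transcript 306 and 291. Rgs16 was then the lowest with LPS, at 1.18 and 1.12 TPM against 1.36 and 1.29 for Rgs12. With PBS, Rgs3 stood above Rgs12 with both of these lengths (2.71 against 2.29 and 2.56 against 2.17), and Rgs1 stood above Rgs18 with the protein-coding length (56.6 against 46.0).

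The sum of the 9 was 617, 589 and 604 TPM with PBS and 622, 570 and 620 with LPS, so the totals overlapped (exact two-sided permutation test, p = 1.00). With TMM-scaled values per kilobase the same sum was 191 ± 4.52 with PBS and 262 ± 5.37 with LPS, a ratio of 1.37, and the groups did not overlap (exact p = 0.1, the smallest that 3 against 3 libraries allow). The 8 genes other than Rgs1 summed to 563 ± 12.2 TPM with PBS and 389 ± 14.9 with LPS, and on the TMM scale to 178 ± 3.94 and 169 ± 2.34 (both exact p = 0.1). Whether the total rose was therefore set by the scaling.

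Ratios between genes of the same library need no scaling. Rgs1 over Rgs2 per kilobase was 0.267, 0.252 and 0.253 with PBS and 1.79, 1.62 and 1.85 with LPS, so the order of these genes turned in all 3 batches. Rgs1 over the sum of the other 8 went from 0.0721 ± 0.00173 to 0.554 ± 0.0295. Rgs10 over Rgs14 went from 15.8 ± 1.67 to 28.5 ± 0.987, and Rgs10 over Rgs19 from 4.13 ± 0.0681 to 6.43 ± 0.134. Each of these 4 ratios had an exact permutation p of 0.1, and no group overlapped the other. The ratios restate changes given above for the same genes and libraries, so this p adds no separate support.

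**Figure D3:**
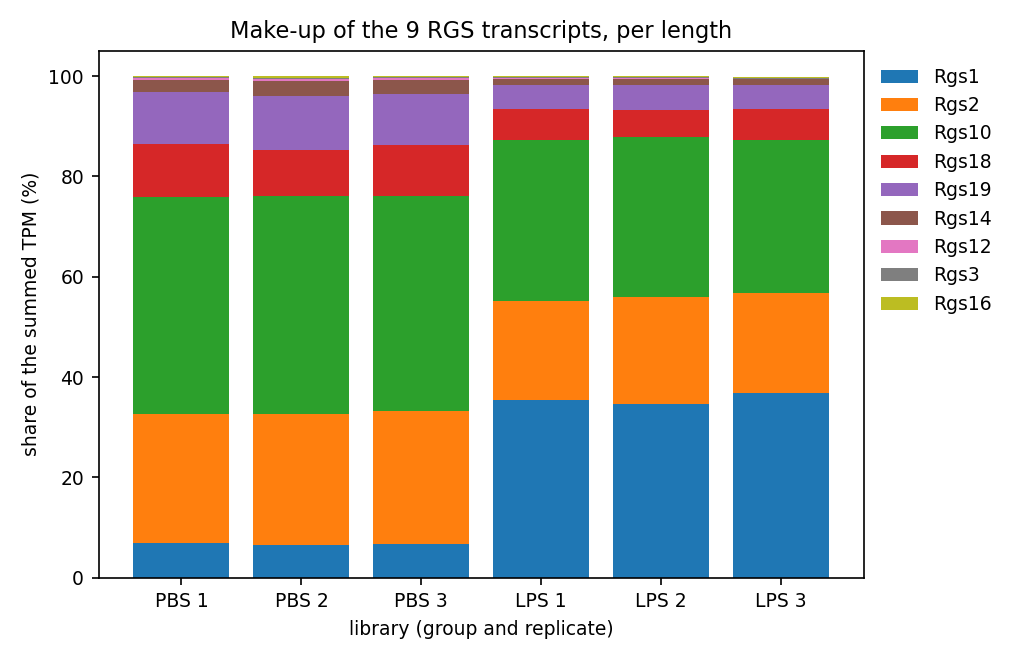
Share of each gene in the summed TPM of the 9 RGS genes (vertical axis, percent) in the 3 PBS and 3 LPS libraries (horizontal axis). Rgs1 takes 6.59% to 6.89% of each PBS bar and 34.6% to 36.9% of each LPS bar, and Rgs10 goes from 43.0% to 43.4% down to 30.4% to 32.2%.

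Rgs2, Rgs1 and Rgs18 are neighbours on chromosome 1, with Rgs13 between Rgs2 and Rgs1 and Rgs21 between Rgs1 and Rgs18. All 5 are on the minus strand, no other protein-coding gene lies between them, and the gaps are 134492, 64923, 267405 and 185015 bp in that order. Rgs1 rose within this run, Rgs18 fell (log2 fold changes of -0.28 with TMM and -0.69 with library size alone), and Rgs2 moved by 0.09 or by -0.31 on the same scalings. Rgs13 had 0 or 1 count in each library. Rgs21 had 0 counts in all 6, which allows up to 3 counts in a library, or 0.0630 to 0.0919 CPM, for counting error only. Rgs16 lies 40025 bp from Rgs8, which had at most 1 count in a library.

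The pentamer ATTTA, the core of many AU-rich elements through which mRNA decay factors act, was counted in the annotated 3′ UTRs of 12072 genes after the other values were seen. Rgs1 held 10 in 3006 bases, a number reached by 6.88% of the genes, and Rgs2 held 5 in 2342 bases, reached by 22.5%. Rgs18 held 5 in 1129 bases, Rgs16 held 4 in 1613 bases, Rgs3, Rgs12 and Rgs19 held 1 each, and Rgs10 and Rgs14 held 0. By density, 16.3% of the genes were as high as Rgs1 (3.33 per kilobase) and 8.6% as high as Rgs18 (4.43 per kilobase). Rgs9, described below, held 2 in 2653 bases, a number reached by 50.5% of the genes. RNA stability was not measured, and a link between the pentamers and the changes was not tested.

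Of the remaining 12 Rgs genes, 2 passed the filter on low counts, and one of them changed more than any of the 9. Rgs9, of the R7 group and known from the retina and striatum, where it partners with the G protein subunit Gnb5, had 6, 4 and 5 counts with PBS and 241, 242 and 252 with LPS. This was a log2 fold change of 6.05 (SE 0.18), from 0.108 ± 0.0187 to 7.33 ± 0.132 CPM. Rgs9 passed the filter on low counts only through its LPS libraries, so no p-value is given for it. The size of its change rests on few PBS counts. Per length Rgs9 was still low with LPS, at 2.64 ± 0.0618 TPM. Its partner Gnb5 had 6.43 ± 0.457 and 5.79 ± 0.390 CPM (adjusted p = 0.166 in edgeR). Of the membrane anchor genes of the R7 group, Rgs9bp had at most 5 counts in a library. Rgs7bp had 6, 4 and 6 counts with PBS and 8, 8 and 9 with LPS, and neither passed the filter on low counts. Rgs11, also of the R7 group, fell from 2.74 ± 0.0513 to 1.71 ± 0.426 CPM (log2 fold change -0.68, adjusted p = 0.00115). Rgs4, Rgs5, Rgs8, Rgs13, Rgs17 and Rgs20 had at most 6 counts in any library, and Rgs6, Rgs7, Rgs21 and Rgs22 had 0 in all. The 9 genes held 99.6% of the TPM of all Rgs genes with PBS and 99.4% with LPS.

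The other genes of the pathway were taken from lists chosen with earlier results of these data known. Among the alpha subunits, on which RGS proteins act, 1 of 10 tested was higher and 1 lower by both criteria, near the 10.5% and 10.4% of all tested genes. Gna13 rose from 327 ± 5.24 to 860 ± 17.0 CPM (log2 fold change 1.40), though with library size alone (0.99) it missed the fold criterion. Gna11, of the Gq class, fell from 8.72 ± 0.527 to 2.73 ± 0.208 CPM (-1.68). The Gi subunits Gnai2 and Gnai3 and the Gq subunit Gnaq, added after their values were seen as the main substrates of the 9, had log2 fold changes of 0.17, 0.16 and 0.75. The median of the list was 0.06, and it was negative under library size and under upper quartile scaling. Among 12 tested beta and gamma subunits, 1 was higher and 0 lower by both criteria in edgeR (2 lower at an unadjusted p under 0.05). Gng4 had 7, 6 and 2 counts with PBS and 712, 663 and 703 with LPS, a log2 fold change of 7.54 (SE 0.16). It too passed the filter on low counts only through its LPS libraries.

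Of 13 tested genes for other proteins with an RGS homology domain (axins, G protein-coupled receptor kinases and sorting nexins among them), 0 were higher and 1 was lower by both criteria in edgeR, and by adjusted p alone 7 rose and 4 fell (at an unadjusted p under 0.05, 8 and 4). The shares of all tested genes were 10.5% and 10.4% by both criteria, and 32.9% and 34.9% by adjusted p alone. Akap10, an anchor for protein kinase A, fell from 113 ± 2.04 to 55.1 ± 2.21 CPM (-1.04). Of 7 tested genes for other G protein regulators and arrestins, 0 passed both criteria, and 6 fell by adjusted p alone in edgeR (also 6 lower and 0 higher at an unadjusted p under 0.05), against 34.9% of all tested genes that fell. Their median log2 fold change was -0.21. These 6 included both arrestins expressed widely, Arrb1 (-0.07) and Arrb2 (-0.21), and the chaperones of alpha subunits Ric8a (-0.51) and Ric8b (-0.76), which were named after their values were seen. Of 9 tested adenylyl cyclases and phospholipase C beta genes, the effectors of Gs, Gi and Gq, 0 passed both criteria (edgeR), while 3 rose and 1 fell by adjusted p alone and at an unadjusted p under 0.05. Every count of 0 by both criteria in these lists was also 0 in DESeq2 and limma voom.

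The last lists hold receptors. Of 21 Gi-coupled receptors of myeloid cells, all tested, 5 were higher and 1 was lower by both criteria, against 10.5% and 10.4% of all tested genes, with a median log2 fold change of 0.25. Gpr84, a receptor for medium-chain fatty acids, rose from 1.67 ± 0.0946 to 106 ± 7.82 CPM (log2 fold change 5.98), and Hcar2, the niacin and hydroxybutyrate receptor, from 1.41 ± 0.150 to 18.6 ± 0.921 (3.73). Cnr2, a cannabinoid receptor, fell from 58.8 ± 2.05 to 12.8 ± 0.462 CPM (-2.20). The other 3 that were higher, named after their values were seen, were S1pr1 (1.61), Gpr183 (1.46) and C5ar1 (1.29), receptors for sphingosine 1-phosphate, oxysterols and complement C5a. Of 14 tested Gs-coupled and Gq-coupled receptors, 4 were higher and 0 lower by both criteria in edgeR, DESeq2 and limma voom (1 lower at an unadjusted p under 0.05 in edgeR), against the same 10.5% and 10.4% of all tested genes. The adenosine receptors Adora2b and Adora2a rose from 1.92 ± 0.250 to 77.6 ± 3.56 CPM (5.33) and from 0.404 ± 0.135 to 13.1 ± 0.706 CPM (5.01).

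**Figure D4:**
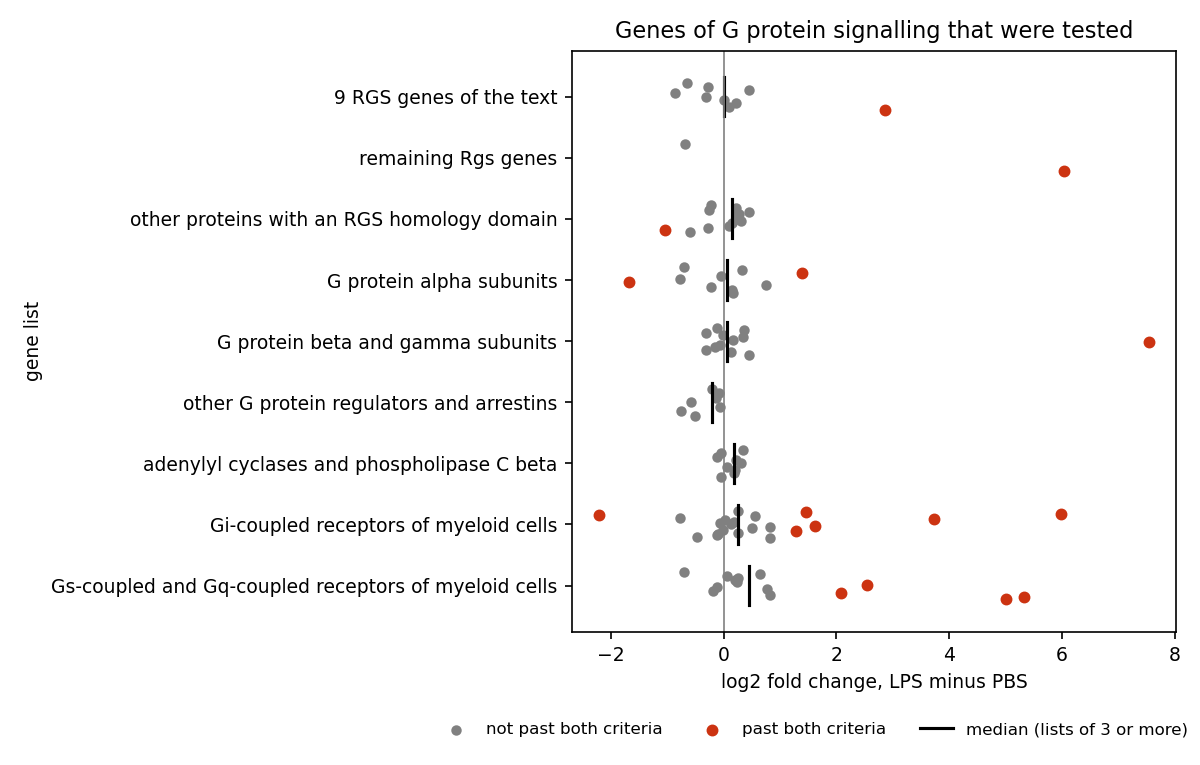
Log2 fold change, LPS minus PBS with TMM scaling (horizontal axis), of every tested gene in 9 groups of G protein signalling (rows). Points are red where the gene passed both criteria. A line marks the median of each group except the remaining Rgs genes, of which 2 were tested. Most points lie within 1 of 0, and the points far to the right are Rgs1 (2.86), Rgs9 (6.05), Gng4 (7.54) and single receptors. With library size alone the medians of the 9 RGS genes and of the homology domain, alpha, beta and gamma, effector and Gi-coupled lists turn negative, as do those of the 9 RGS genes and of the alpha and the beta and gamma lists with upper quartile scaling.

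The labelled cell type was checked against markers. All 8 macrophage markers were above 3 counts in every library and summed to 29700 to 30900 CPM with PBS and 32400 to 32700 with LPS. B cell markers summed to at most 3.64 CPM and T cell and NK cell markers to at most 1.28 CPM in any library. Neutrophil and granulocyte precursor markers (6 of 7 above 3 counts in every library) summed to 40.8 to 43.6 CPM with PBS and 52.7 to 56.8 with LPS. Dendritic cell markers (4 of 5) summed to 4.05 to 5.42 and 11.8 to 12.3 CPM, and mast cell and basophil markers (3 of 5, with Mcpt4 and Tpsb2 at 0) to 5.44 to 6.78 and 9.90 to 10.6 CPM. Fibroblast and stroma markers summed to 13.5 to 14.6 CPM with PBS and 15.2 to 17.6 with LPS, and erythroid markers to at most 0.268 CPM. On the TMM scale the macrophage, neutrophil, dendritic cell, mast cell and fibroblast sums were all higher with LPS. The sums were not computed under other scalings, and the part of these cell types in the RGS values was not tested.

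The genes whose levels lay nearest to Rgs1 over the 6 libraries, among 12145 tested protein-coding genes, were Srgn, Mki67 and Sod2, at Euclidean distances of log2 CPM of 0.0978, 0.254 and 0.408. Those nearest to Rgs14 were Akt1s1 (0.135), Zfp787 (0.182) and Hist1h3f (0.213). Srgn, for example, had 92.1 CPM with PBS and 648 with LPS, and Akt1s1 had 21.6 and 12.6.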

How the data were processed

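RNA-seq libraries (TruSeq Stranded Total RNA) of BMDMs given PBS or LPS for 1 h were analysed, 3 per group, grouped by the sample labels. Alignment of the 101 bp read pairs was done by the authors with HISAT2 2.1.0 on GRCm38, and featureCounts 2.0.0 gave the deposited values, which are raw counts per gene. The annotation release, the strand setting and the treatment of reads with several alignments are not given in the sources used here, and overlapping genes are uncertain.

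Identifiers were matched to GENCODE M21 without the version (55154 of 55335). Counts were tested with edgeR 4.0.16 in R 4.3.3 (quasi-likelihood test, default filter of filterByExpr, TMM scaling, Benjamini-Hochberg over 15687 genes). DESeq2 1.42.0 and limma 3.58.1 (voom), other scalings and filters, and leaving out each library were alternatives. SE values come from the F statistic. In simulated data for this comparison (15687 genes, 200 changed by 2 on the log2 scale) edgeR found 200 of 200 with 0 false calls. The changed genes had a mean count of 50 or more with PBS and as many rises as falls. The simulation therefore did not probe the choice of scaling or changes as small as most of those given here. CPM used TMM scaling, and TPM used merged exon lengths. A gene at or under 3 counts was taken as at the floor, and floors cover counting error only.

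The labels give the replicate number as a batch, which pairs the samples. Deviations from the group means correlated between same-numbered samples at -0.0139, 0.0822 and 0.0387 (mean between different numbers -0.0178). The fit of the text has no block. The study's methods describe pairwise comparisons of conditions and do not state whether a block was used.

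Genes were named by rule: all 9 members, Tnf, from each pathway list the genes past both criteria with the 2 largest rises and falls (mean count of 50 or more), and the 3 nearest protein-coding genes to the members with the largest rise and fall. The members and lists were chosen with earlier results of these data known. The other experiments of the study were not analysed here.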

Additional observations from a re-analysis of the deposited data

How the results depend on the processing

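Each of the 9 fold changes was recomputed under 15 alternatives. Of the 135 values, 23 kept their direction but lost the adjusted p of 0.05, 11 changed sign, and the rest kept direction and side. Rgs1 kept both in all 15, between 2.46 and 2.90 on the log2 scale. With the replicate block, 1652 genes were higher and 1624 lower by both criteria, Rgs1 had a log2 fold change of 2.86, and no call on the 9 genes changed. Depth was lowest for Rgs16, at 42 to 58 counts in each library.

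With library size alone, 2964 genes were lower by both criteria (29.0% of called genes were higher, against 50.4% with TMM), and with at least 10 counts in every library, which tests fewer genes, 1027 were. By both criteria 2 of the 9 were lower under library size, against 2964 of 15687 tested genes. Under upper quartile scaling 1 of the 9 was lower, against 1975 of 15687. By adjusted p alone 4 were higher and 4 lower with TMM, against 32.9% and 34.9% of all tested genes. By adjusted p alone the number higher became 1 with library size, upper quartile scaling or no filter, 2 in the DESeq2 test, and 2 to 3 with a library left out. The number lower became 6 with library size, 5 with upper quartile scaling, 3 in the DESeq2 test, and 3 to 4 with a library left out (3 without PBS 3 or LPS 3). Shares of all tested genes by adjusted p alone were not computed for these alternatives, so these numbers have no background beside them.

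The sign changed for Rgs2 (-0.31 with library size, -0.048 with upper quartile), Rgs3 (-0.18 with library size) and Rgs10 (-0.40 with library size, -0.14 with upper quartile, -0.024 with no filter, -0.016 with at least 10 counts, -0.0058 without the 10 genes of highest mean count, and -0.025 to 0.016 with a library left out). With library size alone the list medians became -0.25 (RGS homology domain), -0.35 (alpha subunits), -0.33 (beta and gamma subunits), -0.22 (effectors) and -0.15 (Gi-coupled receptors). The alpha subunit median was -0.085 with upper quartile scaling and -0.068 with no filter, and that of beta and gamma subunits -0.073 and -0.026, and -0.018 with at least 10 counts.

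With library size alone 0 alpha subunits were called higher, since Gna13 (0.99) missed the fold criterion, and 3 lower, and 1 remaining Rgs gene, 1 other regulator, 2 Gi-coupled receptors and 1 Gs-coupled or Gq-coupled receptor were called lower. Of all 15687 tested genes, 1213 were higher and 2964 lower by both criteria under that scaling. With no filter 2 alpha subunits were higher, against 2117 of 27479 tested genes. With at least 10 counts in every library Rgs9 and Gng4 were not tested, so 0 remaining Rgs genes and 0 beta or gamma subunits were called higher in edgeR.

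The summed level of the 9 was 763 TPM with PBS and 723 with LPS for the longest annotated transcript, 741 and 790 for the longest protein-coding transcript (chosen after seeing the data), and 191 and 262 as TMM-scaled RPKM. The share of Rgs1 was 5.16% and 29.4% with the longest annotated transcript, and 7.64% and 38.8% with the longest protein-coding one. The causes were not tested.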
